A study of Mus musculus with 30 samples.

Results

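The barrier set comprised 32 genes that build, transport or process the lipids of the stratum corneum, chosen by gene symbol and matched to the table of 55487 listed genes through their Ensembl identifiers. All 32 were found, and all 32 passed the filter on low counts that left 17638 genes for testing. The study sequenced polyadenylated RNA from 30 mouse oral samples spanning the stages of carcinogenesis with 4-nitroquinoline 1-oxide (4NQO), a DNA-adduct-forming compound given in drinking water. The groups, by the pathological stage on the label, were normal (n = 3), hyperplasia (n = 8), dysplasia (n = 7), carcinoma in situ (n = 6) and invasive carcinoma (n = 6). The labels of all 30 samples, the normal ones included, give the same history: male C57BL/6J mice, started at 6 weeks of age on 4NQO at 100 ug/mL for 10 weeks. They do not say whether the mice behind the normal samples drank the carcinogen, give no age at sampling, and name the tissue as oral squamous cell carcinoma throughout. Nor do they say that samples of a group came from separate animals, so p-values here measure the spread between these samples. The sample codes carry 1 letter per stage, except that both carcinoma stages share a letter. Anything that differed by letter therefore cannot be told apart from stage outside the comparison of the carcinoma stages.

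Ceramides are made from serine and a fatty acyl-CoA. In cornifying epithelium, ceramide synthase 3 joins the long-chain base to an ultra-long omega-hydroxylated fatty acid, and linoleate is then esterified onto it to give acylceramide. Lamellar granules carry glucosylated acylceramide and sphingomyelin to the cell surface, where lipoxygenases oxidise the linoleate, hydrolases remove the head groups, and the product is bound to the cornified envelope. Loss of many of these genes causes ichthyosis in people or lethal water loss in newborn mice. Oral epithelium cornifies less uniformly than skin.

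Sample totals lay between 17725604 and 28023098 counts, and values below are CPM (counts scaled to a common library total) after TMM scaling. Keratinocyte markers were present in every sample, but so were those of other tissues. The summed level of 15 pan-epithelial genes was 9660 to 14100 CPM in invasive carcinoma, against 7620 to 9360 CPM in normal samples. The 20 skeletal muscle markers summed to 21400 to 50800 CPM in invasive carcinoma, against 68500 to 93800 CPM in normal samples. Normal replicate 2 held the highest muscle sum of the normal samples and was the lowest of them for 24 of the 32 barrier genes. Dysplasia replicate 1 held the highest salivary gland sum of all libraries, 32800 CPM against a dysplasia median of 109 CPM, and was the lowest dysplasia sample for 26 barrier genes. In bulk tissue, fewer cells of a type and less RNA per cell cannot be told apart.

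The barrier genes did not move as a block. In invasive carcinoma against normal tissue 16 of 32 rose and 5 fell at an adjusted p under 0.05, where 46.1% of all tested genes were called (23.4% higher and 22.7% lower). Their median log2 fold change was 0.31, against 0.0196 over all tested genes. In hyperplasia 9 rose and 1 fell (14.3% of all genes called, 8.22% higher and 6.07% lower, median 0.203 for the members and 0.0125 for all genes). In dysplasia 17 rose and 2 fell (25.7% of all genes called, 13.3% higher and 12.4% lower, median 0.441 against 0.012). In carcinoma in situ 10 rose and 4 fell (37.6% of all genes called, 19.4% higher and 18.2% lower, median 0.246 against 0.0224). These 4 comparisons share the same 3 normal samples. Testing for any difference among the 5 stages called 26 members, with 53.2% of all genes called, and testing among the 4 lesion stages called 17, with 36.4% of all genes called. Nipal4, Kdsr, Acer1, Asah1, Smpd1 and Elovl6 were the 6 not called among the 5 stages.

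**Figure D1:**
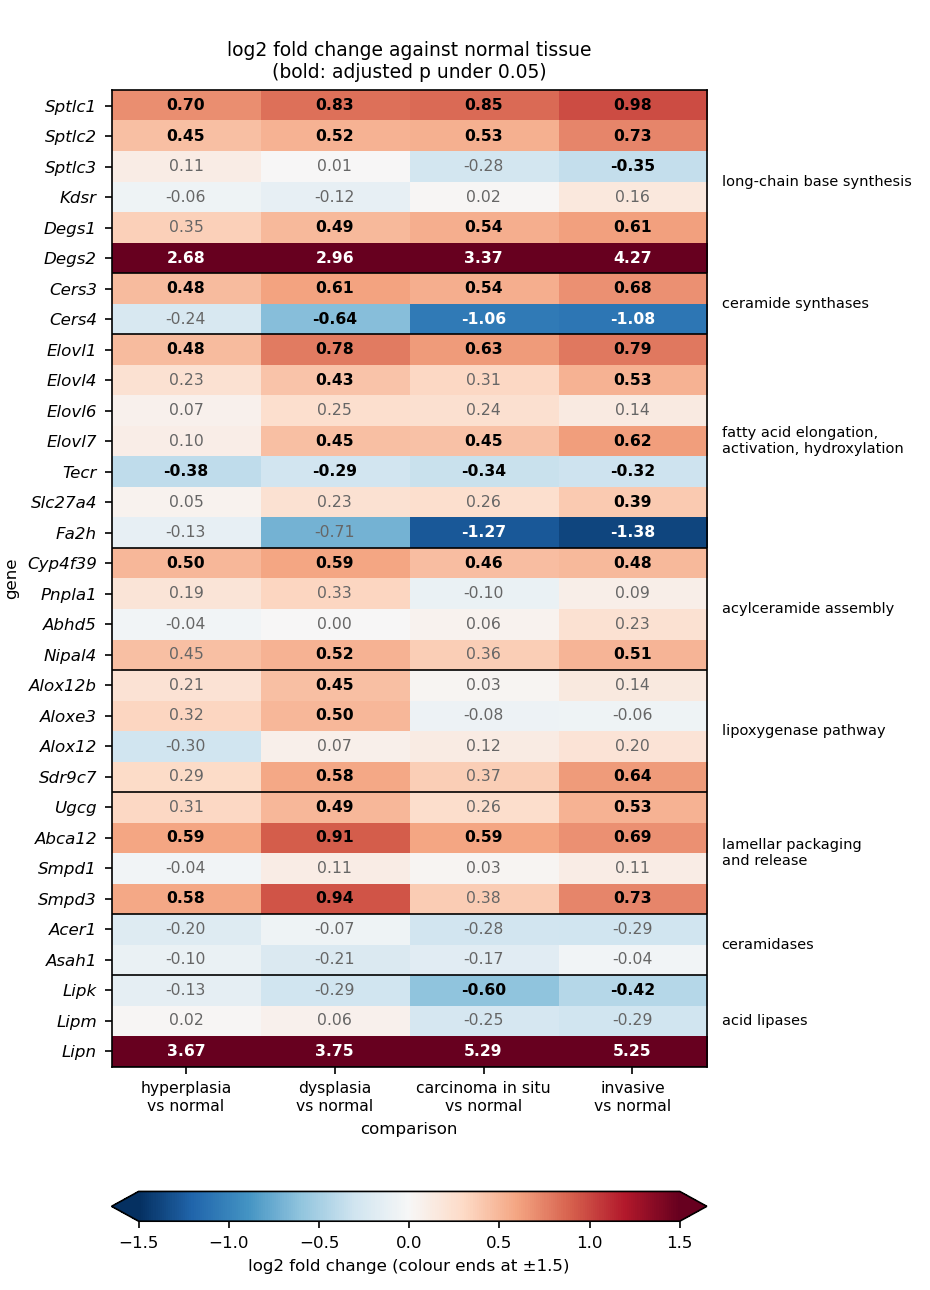
Log2 fold change of the 32 barrier genes (rows, grouped by role) in each lesion stage over normal (columns), with the value printed in each cell, bold where the adjusted p was under 0.05, and colour capped at 1.5 in either direction. Lipn and Degs2 lie past the cap in all 4 columns, while Cers4 and Fa2h are the lowest entries of the carcinoma columns. Lipn had 1 count in each normal sample.

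Without normal replicate 2 the counts fell to 3 members in hyperplasia (Sptlc1, Degs2 and Lipn), 8 for dysplasia, 10 for carcinoma in situ and 13 for invasive carcinoma, where 5.14%, 7.11%, 23.5% and 34.0% of all genes were called. The 8 that passed in dysplasia were Elovl1, Sptlc1, Sptlc2, Degs2, Cers4, Abca12, Smpd3 and Lipn. Those lost in invasive carcinoma were Elovl4, Slc27a4, Tecr, Cyp4f39, Nipal4, Sdr9c7, Smpd3 and Ugcg, and those lost in carcinoma in situ were Cers3, Tecr, Cyp4f39 and Abca12. Without normal replicate 3 the dysplasia count was 13, with the share of all genes in that fit not given here. With the mean log2 level of the pan-epithelial genes as a covariate, 7 members stayed called in invasive carcinoma against normal, namely Elovl1 at 0.40, Sptlc1 at 0.72, Sptlc2 at 0.44, Degs2 at 3.15, Lipn at 3.96, Cers4 at -0.88 and Lipk at -0.61 on the log2 scale. With that covariate 8.29% of all genes were called. The 11 members whose rise was no longer called ran from 0.0348 (Slc27a4) to 0.503 (Smpd3), and of the 3 whose fall was lost Fa2h was at -0.919, Tecr at -0.0479 and Sptlc3 at -0.431, the last larger than without the covariate. A muscle covariate left the same 7, with 11.5% of all genes called. Fitted values of Lipn against normal rest on 1 count in each normal sample. Scaling every library to its pan-epithelial counts, a setting chosen after seeing the data, moved the median of all genes in this comparison to -0.465 and turned the member split to 4 higher (Lipn, Degs2, Sptlc1 and Elovl1) and 11 lower, with 52.9% of all genes called. Under that scaling 6 rose and 8 fell in dysplasia, 3 rose and 10 fell in carcinoma in situ, and 6 rose and 0 fell in hyperplasia, with 32.8%, 36.7% and 5.08% of all genes called. The part of tissue makeup in the individual gene changes was otherwise not tested.

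**Figure D2:**
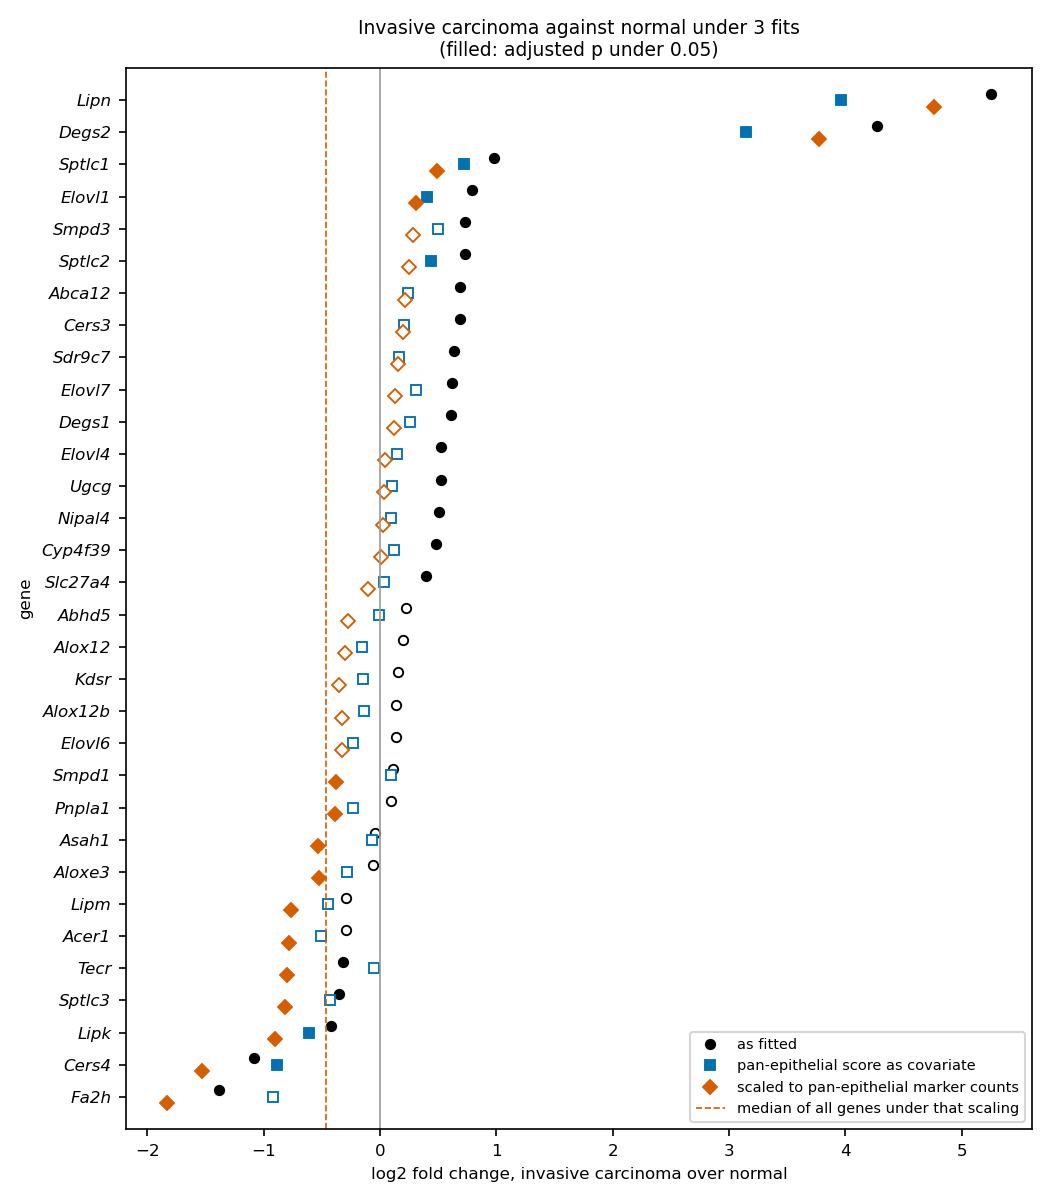
Log2 fold change of each barrier gene in invasive carcinoma over normal as fitted (black circles), with the pan-epithelial level as a covariate (blue squares) and scaled to pan-epithelial counts (orange diamonds), filled where the adjusted p was under 0.05. Lipn, Degs2, Sptlc1 and Elovl1 stay filled to the right of 0 in all 3 fits, and the dashed line marks the median of all genes under the scaling, -0.465. Lipn had 1 count in each normal sample.

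The genes of long-chain base synthesis and desaturation split by family member. In invasive carcinoma Sptlc1, Sptlc2, Degs1 and Degs2 rose, Sptlc3 fell, and Kdsr was not called. Degs2 (ENSMUSG00000021263.11, chr12:108678711-108702315, minus strand) encodes the dihydroceramide hydroxylase and desaturase that makes phytoceramides. Degs2 had 0.596, 0.845 and 1.63 CPM in normal replicates 1 to 3, 3.56 to 12.6 CPM in hyperplasia (median 5.73), 5.2 to 12 CPM in dysplasia (median 8), 6.12 to 18.7 CPM in carcinoma in situ (median 9.76) and 8.86 to 29.5 CPM in invasive carcinoma (median 19.2). Every lesion sample lay above every normal sample, and the invasive samples reached highest. The log2 fold changes were 2.68 ± 0.47 (adjusted p = 0.000362) in hyperplasia, 2.96 ± 0.47 (adjusted p = 0.000216) in dysplasia, 3.37 ± 0.48 (adjusted p = 2.54e-05) in carcinoma in situ and 4.27 ± 0.50 (adjusted p = 1.57e-06) in invasive carcinoma. The normal samples held 63 Degs2 counts in all, and the counting interval of the pooled invasive to normal ratio ran from 3.89 to 4.64 on the log2 scale, which covers counting error only. Among lesions, Degs2 was higher in invasive carcinoma than in hyperplasia by 1.59 ± 0.29 (adjusted p = 0.000189). With the pan-epithelial covariate that value was 0.651 and not called, and with the muscle covariate 0.953 and called. Evl, on the opposite strand, covers 10.8% of the exon bases of Degs2, and had 8.97 ± 1.3 CPM in invasive carcinoma and 7.86 ± 0.327 CPM in normal samples (SD, n = 6 and 3). Whether counting used strand is not given in the sources used here.

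Degs1, the desaturase that makes the common sphingosine-based ceramides, averaged 248 ± 33.9 CPM in invasive carcinoma and 162 ± 9.62 CPM in normal samples, a log2 fold change of 0.61 ± 0.14 (adjusted p = 0.000669). In dysplasia it rose by 0.49 ± 0.13 (adjusted p = 0.00841), a call lost without normal replicate 2, at 0.441. Per kilobase of exon, Degs2 stood at 7.85 CPM and Degs1 at 95.7 CPM in invasive carcinoma, and at 0.396 and 62.5 CPM in normal samples. Degs1 thus stayed the more abundant of the pair in both groups. The log2 ratio of Degs2 to Degs1 counts was higher than in normal tissue by 2.35 (adjusted p = 0.0453) in hyperplasia, 2.55 (adjusted p = 0.0453) in dysplasia, 2.86 (adjusted p = 0.0453) in carcinoma in situ and 3.68 (adjusted p = 0.0453) in invasive carcinoma, by exact two-sided permutation over samples with adjustment over 56 ratio tests of 7 gene pairs. These pairs were chosen after seeing the data, and the smallest raw p the designs allow is 0.0121 for hyperplasia, 0.0167 for dysplasia and 0.0238 for each carcinoma stage.

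Serine palmitoyltransferase catalyses the first step of the pathway. Sptlc1 (ENSMUSG00000021468.8, chr13:53332748-53377397, minus strand) encodes its obligate subunit. Sptlc1 had 65.8, 55.9 and 63.3 CPM in normal replicates 1 to 3, 80.3 to 119 CPM in hyperplasia (median 102), 84.3 to 121 CPM in dysplasia (median 116), 94.1 to 125 CPM in carcinoma in situ (median 113) and 111 to 146 CPM in invasive carcinoma (median 113). All lesion samples lay above all normal samples. The log2 fold changes were 0.70 ± 0.12 (adjusted p = 0.000205) in hyperplasia, 0.83 ± 0.12 (adjusted p = 7.58e-05) in dysplasia, 0.85 ± 0.12 (adjusted p = 2.11e-05) in carcinoma in situ and 0.98 ± 0.12 (adjusted p = 2.4e-06) in invasive carcinoma. Sptlc2, the partner that carries the catalytic site, showed the same separation. Sptlc2 had 79.9, 62.5 and 81.7 CPM in normal replicates 1 to 3, 86.3 to 120 CPM in hyperplasia (median 101), 90.5 to 116 CPM in dysplasia (median 108), 88.5 to 118 CPM in carcinoma in situ (median 112) and 112 to 145 CPM in invasive carcinoma (median 121). It rose by 0.45 ± 0.11 (adjusted p = 0.0056) in hyperplasia, 0.52 ± 0.11 (adjusted p = 0.00152) in dysplasia, 0.53 ± 0.11 (adjusted p = 0.000762) in carcinoma in situ and 0.73 ± 0.11 (adjusted p = 2.33e-05) in invasive carcinoma. Sptlc3, the alternative catalytic subunit that accepts other acyl chain lengths, averaged 28.8 ± 4.02 CPM in invasive carcinoma, 39.6 ± 3.98 CPM in hyperplasia and 36.7 ± 7.31 CPM in normal samples. It fell in invasive carcinoma against normal by 0.35 ± 0.14 (adjusted p = 0.0398) on the log2 scale. That call held in 23 of 30 fits that each left out 1 sample. The fits that lost it included those without normal replicate 1 and without normal replicate 3, where Sptlc3 was at -0.182 in the latter. Against hyperplasia the log2 fold change was -0.46 ± 0.11 (adjusted p = 0.00187). The ratio of Sptlc3 to Sptlc1 differed from normal by -0.58 (adjusted p = 0.0453) in hyperplasia, -0.81 (adjusted p = 0.0453) in dysplasia, -1.12 (adjusted p = 0.0453) in carcinoma in situ and -1.32 (adjusted p = 0.0453) in invasive carcinoma, and between invasive carcinoma and hyperplasia by -0.75 (adjusted p = 0.0186) (log2, exact permutation). No sample of the later group overlapped the earlier one in that last comparison. The pair was chosen after seeing the data, and each raw p against normal was the smallest its design allows. The hyperplasia call of Sptlc2 was lost without normal replicate 2, at 0.318. Kdsr, the reductase that follows serine palmitoyltransferase, had means of 17.2 to 20.9 CPM across the stages and was called in no comparison as fitted.

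**Figure D3:**
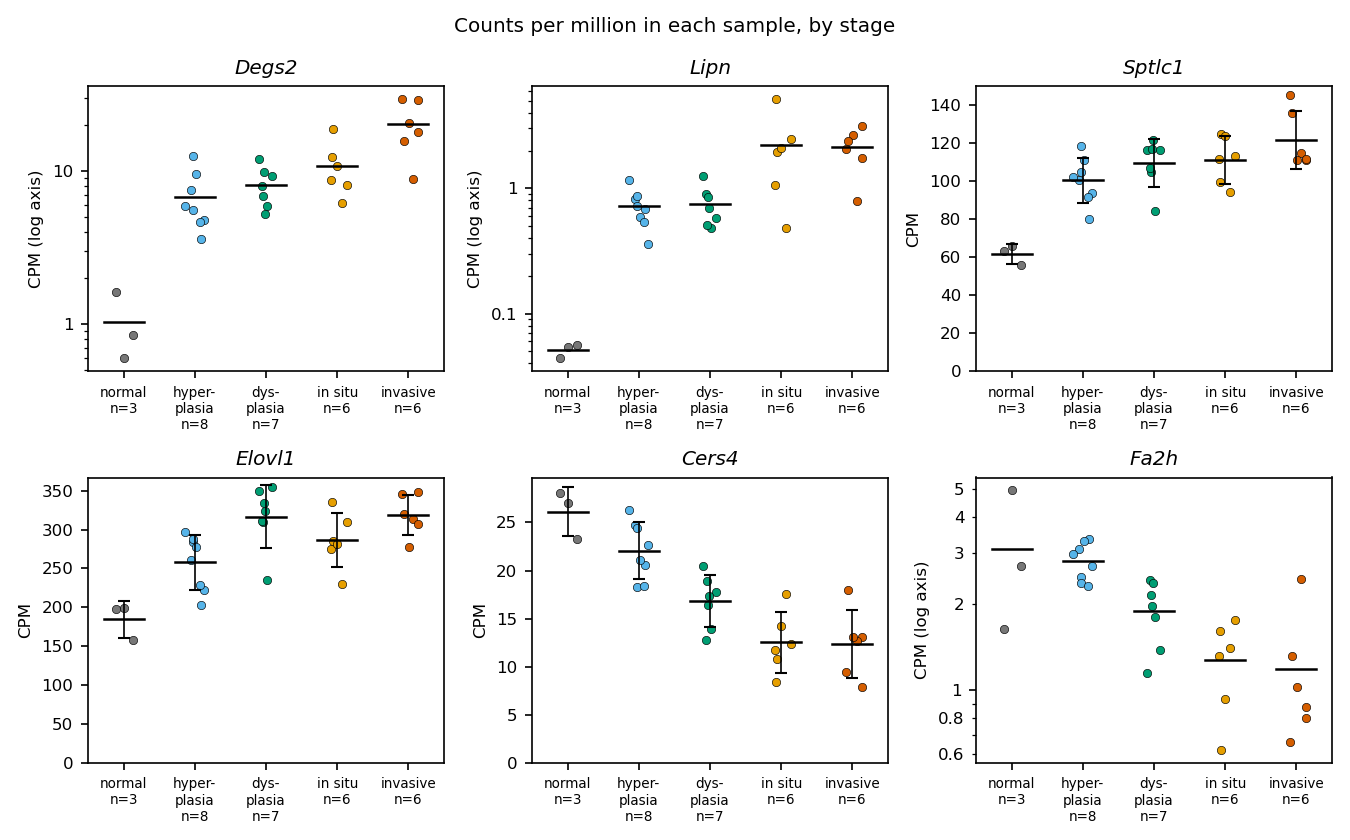
CPM of Degs2, Lipn and Fa2h (log axes, bar at the mean) and of Sptlc1, Elovl1 and Cers4 (linear axes, mean ± SD), 1 point per sample, by stage. Degs2, Sptlc1 and Elovl1 show every lesion sample above the 3 normal samples, and Cers4 shows all dysplasia and carcinoma samples below them. Lipn is separated too, but it had 1 count in each normal sample and passed the filter through its lesion samples. Its separation is therefore not support for a rise.

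The ceramide synthases diverged. Cers4 (ENSMUSG00000008206.16, chr8:4493026-4531680, plus strand) makes ceramides with shorter acyl chains than those of the barrier. Cers4 had 27, 23.3 and 28.1 CPM in normal replicates 1 to 3, 18.2 to 26.3 CPM in hyperplasia (median 21.9), 12.8 to 20.4 CPM in dysplasia (median 17.3), 8.41 to 17.6 CPM in carcinoma in situ (median 12) and 7.9 to 18 CPM in invasive carcinoma (median 12.9). All samples of dysplasia and both carcinoma stages lay below every normal sample, and 5 of 8 hyperplasia samples did. The log2 fold changes were -0.64 ± 0.19 (adjusted p = 0.0138) in dysplasia, -1.06 ± 0.19 (adjusted p = 0.000201) in carcinoma in situ and -1.08 ± 0.19 (adjusted p = 8.56e-05) in invasive carcinoma, and -0.24 ± 0.18 (adjusted p = 0.403) in hyperplasia, which was not called. Cers3 (ENSMUSG00000030510.11, chr7:66743504-66823691, plus strand), the synthase that uses ultra-long acyl chains, went the other way. Cers3 had 127, 104 and 131 CPM in normal replicates 1 to 3, 130 to 211 CPM in hyperplasia (median 167), 119 to 252 CPM in dysplasia (median 189), 134 to 193 CPM in carcinoma in situ (median 181) and 164 to 224 CPM in invasive carcinoma (median 192). The log2 fold changes were 0.48 ± 0.16 (adjusted p = 0.0467) in hyperplasia, 0.61 ± 0.17 (adjusted p = 0.00934) in dysplasia, 0.54 ± 0.17 (adjusted p = 0.0132) in carcinoma in situ and 0.68 ± 0.17 (adjusted p = 0.00186) in invasive carcinoma. The hyperplasia call held in 9 of 30 fits that each left out 1 sample. Without normal replicate 2 the Cers3 calls in dysplasia, at 0.511, and carcinoma in situ, at 0.449, were lost, and without normal replicate 3 the Cers4 call in dysplasia was lost, at -0.58. The ratio of Cers4 to Cers3 differed from normal by -0.71 (adjusted p = 0.0453) in hyperplasia, -1.23 (adjusted p = 0.0453) in dysplasia, -1.63 (adjusted p = 0.0453) in carcinoma in situ and -1.80 (adjusted p = 0.0453) in invasive carcinoma (log2, exact permutation). It also differed between dysplasia and hyperplasia by -0.51 (adjusted p = 0.0398), and between invasive carcinoma and hyperplasia by -1.09 (adjusted p = 0.0186) with no overlap. This pair too was chosen after seeing the data, and each raw p against normal was the smallest its design allows. Per kilobase, Cers3 was the more abundant throughout, at 59.6 CPM against 1.01 CPM for Cers4 in invasive carcinoma and at 37.1 against 2.13 CPM in normal samples. The sums of 8 sebocyte markers, of which 4 were tested, had a median of 20.1 CPM in invasive carcinoma and 45.7 CPM in normal samples, and their part in the Cers4 change was not tested.

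**Figure D4:**
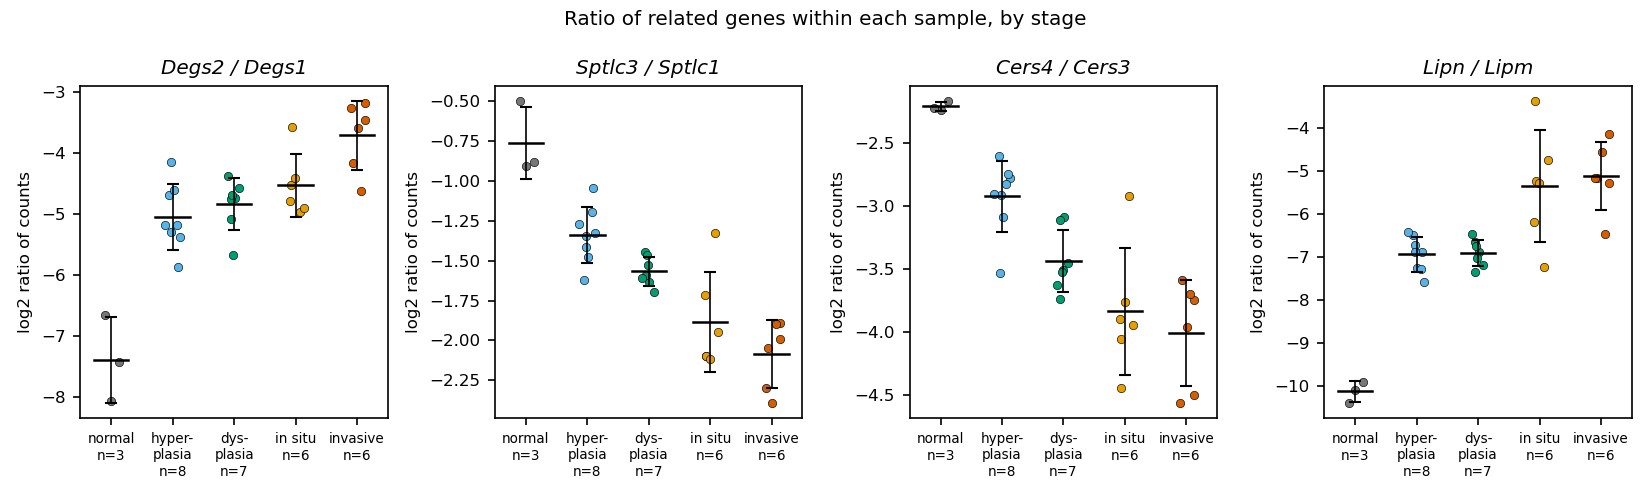
Log2 count ratio within each sample of Degs2 to Degs1, Sptlc3 to Sptlc1, Cers4 to Cers3 and Lipn to Lipm by stage (points are samples, bars mean ± SD). The first and the last ratio are higher in every lesion sample than in normal samples, and the other 2 are lower. The normal values of the Lipn to Lipm ratio rest on 1 Lipn count in each sample.

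Of the 7 genes for fatty acid elongation, activation and hydroxylation, Elovl1, Elovl4, Elovl7 and Slc27a4 rose in invasive carcinoma, and Fa2h and Tecr fell. Elovl6 was not called in any comparison as fitted. Elovl1 (ENSMUSG00000006390.15, chr4:118428093-118432953, plus strand) elongates saturated chains to very long lengths. Elovl1 had 199, 157 and 198 CPM in normal replicates 1 to 3, 203 to 297 CPM in hyperplasia (median 269), 235 to 355 CPM in dysplasia (median 324), 230 to 336 CPM in carcinoma in situ (median 284) and 278 to 348 CPM in invasive carcinoma (median 317). All lesion samples exceeded all normal samples, with log2 fold changes of 0.48 ± 0.13 (adjusted p = 0.0114) in hyperplasia, 0.78 ± 0.13 (adjusted p = 0.000277) in dysplasia, 0.63 ± 0.13 (adjusted p = 0.000728) in carcinoma in situ and 0.79 ± 0.13 (adjusted p = 5.6e-05) in invasive carcinoma. Elovl7 (ENSMUSG00000021696.9, chr13:108214404-108285683, plus strand) is an elongase of long saturated acyl-CoAs. Elovl7 had 80.4, 73.9 and 79.7 CPM in normal replicates 1 to 3, 68 to 104 CPM in hyperplasia (median 84.2), 80.2 to 120 CPM in dysplasia (median 104), 94.2 to 122 CPM in carcinoma in situ (median 106) and 103 to 137 CPM in invasive carcinoma (median 117). Hyperplasia overlapped normal at 0.10 ± 0.12 (adjusted p = 0.603), whereas dysplasia exceeded normal by 0.45 ± 0.12 (adjusted p = 0.00768), carcinoma in situ by 0.45 ± 0.12 (adjusted p = 0.00552) and invasive carcinoma by 0.62 ± 0.12 (adjusted p = 0.000226). It was also the single member called in dysplasia against hyperplasia, at 0.35 ± 0.09 (adjusted p = 0.0178), where 5.18% of all genes were called, 2.99% higher and 2.19% lower, and the members' median was 0.131 against -0.00789 for all genes. That call was lost without hyperplasia replicate 4, at 0.321, and 7 members were called without dysplasia replicate 1. The share of all genes in the latter fit is not given here. Without normal replicate 2, Elovl1 in hyperplasia, at 0.361, and Elovl7 in dysplasia, at 0.409, were no longer called.

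Elovl4, which makes the ultra-long chains that acylceramide needs, averaged 377 ± 57.1 CPM in invasive carcinoma and 262 ± 42.8 CPM in normal samples, a log2 fold change of 0.53 ± 0.15 (adjusted p = 0.00685). It also rose in dysplasia, by 0.43 ± 0.15 (adjusted p = 0.0348). The Elovl4 values without normal replicate 2 were 0.402 in invasive carcinoma and 0.302 in dysplasia, and that of Slc27a4 in invasive carcinoma was 0.32, none of them called. Slc27a4, a fatty acid transporter and acyl-CoA synthetase whose loss gives a lethal skin barrier defect in mice, averaged 132 ± 19.3 CPM in invasive carcinoma and 100 ± 10.1 CPM in normal samples, a change of 0.39 ± 0.11 (adjusted p = 0.00475) that turned to -0.104 under pan-epithelial scaling. Fa2h (ENSMUSG00000033579.16, chr8:111345135-111393824, minus strand) adds the alpha-hydroxyl group of many skin ceramides and also serves myelin lipids. Fa2h had 4.93, 2.7 and 1.63 CPM in normal replicates 1 to 3, 2.3 to 3.35 CPM in hyperplasia (median 2.83), 1.15 to 2.41 CPM in dysplasia (median 1.96), 0.623 to 1.75 CPM in carcinoma in situ (median 1.36) and 0.662 to 2.44 CPM in invasive carcinoma (median 0.952). The normal samples spread widely, and 5 of 6 samples of each carcinoma stage lay below all of them. Fa2h changed by -1.27 ± 0.33 (adjusted p = 0.00365) in carcinoma in situ and -1.38 ± 0.33 (adjusted p = 0.00129) in invasive carcinoma. Without normal replicate 1 these values were -0.744 (adjusted p = 0.104) and -0.855 (adjusted p = 0.0528). The log2 fold change of invasive carcinoma over hyperplasia, groups that hold no normal sample, was -1.25 ± 0.27 (adjusted p = 0.000773) in the fit over all samples. Schwann cell and myelin markers fell in the same direction: their summed level was 169 to 318 CPM in invasive carcinoma, against 394 to 642 CPM in normal samples, and 8 of 9 tested were lower. Their part in the Fa2h change was not tested. Tecr, the reductase that ends each elongation cycle, averaged 170 ± 11.7 CPM in invasive carcinoma and 212 ± 31.5 CPM in normal samples, with a log2 fold change of -0.38 ± 0.10 (adjusted p = 0.00825) in hyperplasia and -0.32 ± 0.10 (adjusted p = 0.0126) in invasive carcinoma. The invasive value of Tecr was -0.206 without normal replicate 2, and then no stage was called. Elovl6, which elongates palmitate, had means of 49.3 to 58.6 CPM across the stages.

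Of the 4 genes of acylceramide assembly, Cyp4f39 and Nipal4 rose in invasive carcinoma against normal, and Pnpla1 and Abhd5 were not called. Cyp4f39, the mouse omega-hydroxylase of ultra-long fatty acids, rose in every lesion stage. Cyp4f39 had 128, 112 and 152 CPM in normal replicates 1 to 3, 149 to 211 CPM in hyperplasia (median 184), 123 to 229 CPM in dysplasia (median 202), 154 to 209 CPM in carcinoma in situ (median 176) and 143 to 221 CPM in invasive carcinoma (median 182). The log2 fold changes were 0.50 ± 0.15 (adjusted p = 0.0226) in hyperplasia, 0.59 ± 0.15 (adjusted p = 0.00602) in dysplasia, 0.46 ± 0.15 (adjusted p = 0.0186) in carcinoma in situ and 0.48 ± 0.15 (adjusted p = 0.0111) in invasive carcinoma. All 6 carcinoma in situ samples lay above the normal samples, and the other stages overlapped them. Nipal4, a membrane protein mutated in ichthyosis, rose in dysplasia by 0.52 ± 0.16 (adjusted p = 0.0175) and in invasive carcinoma by 0.51 ± 0.16 (adjusted p = 0.0119). None of these Cyp4f39 and Nipal4 calls held without normal replicate 2, where the invasive values were 0.387 and 0.373. Pnpla1 transfers linoleate onto the omega-hydroxyceramide, and Abhd5 is its co-activator. Pnpla1 had 70.7, 46 and 57.1 CPM in normal replicates 1 to 3, 54.3 to 80.6 CPM in hyperplasia (median 67.6), 50.5 to 94.3 CPM in dysplasia (median 71.8), 51.1 to 58.5 CPM in carcinoma in situ (median 53.1) and 51.5 to 77.7 CPM in invasive carcinoma (median 61.2). No stage was called against normal as fitted, and the carcinoma in situ samples formed a narrow band within the normal range. With the differentiated keratinocyte covariate Pnpla1 was called lower than normal in carcinoma in situ, at -0.279. Under pan-epithelial scaling it was called lower in carcinoma in situ, at -0.455, and in invasive carcinoma, at -0.385. Both settings were chosen after seeing the data, and the scaling moved the medians of all genes to -0.334 and -0.465 in these stages. Abhd5 had 108, 118 and 109 CPM in normal replicates 1 to 3, 97 to 126 CPM in hyperplasia (median 109), 100 to 122 CPM in dysplasia (median 110), 96.4 to 131 CPM in carcinoma in situ (median 117) and 113 to 168 CPM in invasive carcinoma (median 126). As fitted, Abhd5 was called in 1 pairwise comparison, invasive carcinoma over hyperplasia, at 0.26 ± 0.08 (adjusted p = 0.00979). Without invasive replicate 9 that value was 0.184 and not called. Pan-epithelial scaling called Abhd5 lower than normal in dysplasia, at -0.384, and in carcinoma in situ, at -0.315.

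Of the 4 genes of the lipoxygenase pathway, Alox12b, Aloxe3 and Sdr9c7 rose in dysplasia and Sdr9c7 in invasive carcinoma. Alox12b, which starts the oxidation of acylceramide linoleate, had the highest level per kilobase of exon of all 32 members in every stage, 172 CPM in invasive carcinoma and 156 CPM in normal samples. Alox12b had 421, 305 and 408 CPM in normal replicates 1 to 3, 369 to 502 CPM in hyperplasia (median 438), 321 to 643 CPM in dysplasia (median 526.5), 352 to 477 CPM in carcinoma in situ (median 372) and 321 to 513 CPM in invasive carcinoma (median 415). The stages overlapped, and dysplasia alone was called against normal, at 0.45 ± 0.16 (adjusted p = 0.0337). Aloxe3 converts the resulting hydroperoxide to an epoxyalcohol and neighbours Alox12b on chromosome 11. Aloxe3 had 143, 95.2 and 139 CPM in normal replicates 1 to 3, 142 to 183 CPM in hyperplasia (median 153), 110 to 250 CPM in dysplasia (median 179), 108 to 144 CPM in carcinoma in situ (median 112) and 89.2 to 167 CPM in invasive carcinoma (median 122). Dysplasia exceeded normal by 0.50 ± 0.18 (adjusted p = 0.0432), while invasive carcinoma was at -0.06 ± 0.18 (adjusted p = 0.8) against normal and at -0.39 ± 0.14 (adjusted p = 0.0299) against hyperplasia. Sdr9c7, the dehydrogenase that completes this oxidation, had its highest mean in invasive carcinoma. Sdr9c7 had 61.6, 47.5 and 64.2 CPM in normal replicates 1 to 3, 55.6 to 88.3 CPM in hyperplasia (median 70), 50.6 to 114 CPM in dysplasia (median 89.9), 57.9 to 84.4 CPM in carcinoma in situ (median 77.1) and 75.5 to 108 CPM in invasive carcinoma (median 91.6). It rose by 0.58 ± 0.17 (adjusted p = 0.0145) in dysplasia and by 0.64 ± 0.17 (adjusted p = 0.00433) in invasive carcinoma, where all 6 samples lay above the normal ones. None of the dysplasia calls of Alox12b, Aloxe3 and Sdr9c7 held without normal replicate 2, at 0.32, 0.332 and 0.458, nor the invasive call of Sdr9c7, at 0.518. Alox12, the platelet-type lipoxygenase that skin also makes, had its lowest levels in hyperplasia. Alox12 had 40, 34.6 and 35.7 CPM in normal replicates 1 to 3, 24.9 to 34.1 CPM in hyperplasia (median 29.7), 30 to 46.2 CPM in dysplasia (median 39.5), 29.9 to 54.4 CPM in carcinoma in situ (median 39.1) and 28.8 to 54.7 CPM in invasive carcinoma (median 39.6). All 8 hyperplasia samples lay below the normal samples, at -0.30 ± 0.16 (adjusted p = 0.206), which was not called, and invasive carcinoma exceeded hyperplasia by 0.51 ± 0.13 (adjusted p = 0.00321). Of 3 tested platelet markers, 2 were lower in hyperplasia than in normal samples, and their summed level was 11.8 to 18.4 CPM in hyperplasia and 16.9 to 61.9 CPM in normal samples, and their part in the Alox12 values was not tested.

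In packaging and release, Abca12, Smpd3 and Ugcg rose in invasive carcinoma and Smpd1 was not called in any comparison as fitted. Abca12 (ENSMUSG00000050296.14, chr1:71242276-71414910, minus strand) loads glucosylceramide into lamellar granules. Abca12 had 156, 109 and 160 CPM in normal replicates 1 to 3, 179 to 246 CPM in hyperplasia (median 210), 176 to 348 CPM in dysplasia (median 264), 179 to 280 CPM in carcinoma in situ (median 207) and 187 to 250 CPM in invasive carcinoma (median 234). All lesion samples lay above all normal samples, with log2 fold changes of 0.59 ± 0.15 (adjusted p = 0.0122) in hyperplasia, 0.91 ± 0.16 (adjusted p = 0.000394) in dysplasia, 0.59 ± 0.16 (adjusted p = 0.0052) in carcinoma in situ and 0.69 ± 0.16 (adjusted p = 0.00112) in invasive carcinoma. Smpd3 (ENSMUSG00000031906.9, chr8:106252548-106337988, minus strand) encodes a neutral sphingomyelinase. Smpd3 had 136, 69.8 and 125 CPM in normal replicates 1 to 3, 125 to 206 CPM in hyperplasia (median 169), 147 to 271 CPM in dysplasia (median 203), 99.9 to 179 CPM in carcinoma in situ (median 146) and 133 to 211 CPM in invasive carcinoma (median 190). The lowest normal value was that of replicate 2, and the dysplasia samples all lay above the normal range. The changes were 0.58 ± 0.19 (adjusted p = 0.0396) in hyperplasia, 0.94 ± 0.20 (adjusted p = 0.00162) in dysplasia, 0.38 ± 0.20 (adjusted p = 0.128) in carcinoma in situ, which was not called, and 0.73 ± 0.20 (adjusted p = 0.00392) in invasive carcinoma. Without normal replicate 2 the hyperplasia value was 0.324 and the invasive one 0.494, neither called, and those of Abca12 in hyperplasia, at 0.413, and carcinoma in situ, at 0.442, were not called either. Ugcg glucosylates ceramide before packaging. Ugcg had 103, 60.7 and 76 CPM in normal replicates 1 to 3, 83.7 to 119 CPM in hyperplasia (median 97.6), 77.7 to 157 CPM in dysplasia (median 111), 78.8 to 116 CPM in carcinoma in situ (median 98.3) and 102 to 141 CPM in invasive carcinoma (median 111). It rose by 0.49 ± 0.16 (adjusted p = 0.0255) in dysplasia and 0.53 ± 0.17 (adjusted p = 0.0109) in invasive carcinoma, and without normal replicate 2 these were 0.329 and 0.368, neither called. Smpd1, the acid sphingomyelinase, had means of 98.2 to 109 CPM across the stages. The log2 ratio of Smpd3 to Smpd1 exceeded normal by 0.88 (adjusted p = 0.0453) in dysplasia and 0.68 (adjusted p = 0.0453) in invasive carcinoma, and the difference of carcinoma in situ from dysplasia was -0.48 (adjusted p = 0.0326) (exact permutation). This pair was also chosen after seeing the data, and both raw p-values against normal were the smallest their designs allow.

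Neither ceramidase was called in any comparison as fitted. Acer1, the alkaline ceramidase of differentiated keratinocytes, averaged 58.7 ± 9.48 CPM in invasive carcinoma and 72 ± 4.33 CPM in normal samples, at -0.29 ± 0.15 (adjusted p = 0.111). All samples of both carcinoma stages nonetheless lay below the 3 normal samples. With the differentiated keratinocyte covariate Acer1 was called lower than normal in every stage, at -0.415 (adjusted p = 0.0119) in hyperplasia, -0.592 (adjusted p = 0.0106) in dysplasia, -0.493 (adjusted p = 0.00168) in carcinoma in situ and -0.639 (adjusted p = 0.000337) in invasive carcinoma. That covariate was chosen after seeing the data. In the same order of stages it called 1997, 1152, 5957 and 6471 of all 17638 genes. Asah1, the lysosomal acid ceramidase, averaged 50.4 ± 5.97 CPM in invasive carcinoma and 51.9 ± 3.87 CPM in normal samples, at -0.04 ± 0.12 (adjusted p = 0.801). Under pan-epithelial scaling, with its lower median of all genes, both were called lower in dysplasia, carcinoma in situ and invasive carcinoma, where Acer1 was at -0.783 and Asah1 at -0.532.

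The acid lipases Lipk, Lipn and Lipm are neighbours on chromosome 19 and are expressed in differentiating keratinocytes, and in people LIPN mutations cause a late-onset ichthyosis. In invasive carcinoma against normal Lipn rose, Lipk fell and Lipm was not called. Lipn (ENSMUSG00000024770.14, chr19:34067358-34084918, plus strand) had 1 count in each normal sample. Lipn had 0.0542, 0.0563 and 0.044 CPM in normal replicates 1 to 3, 0.356 to 1.16 CPM in hyperplasia (median 0.707), 0.48 to 1.26 CPM in dysplasia (median 0.699), 0.481 to 5.16 CPM in carcinoma in situ (median 2.03) and 0.796 to 3.12 CPM in invasive carcinoma (median 2.23). Every lesion sample lay above the normal samples, and both carcinoma stages reached above the premalignant ones while overlapping them. The 3 normal samples held 3 counts against 298 in invasive carcinoma, 320 in carcinoma in situ, 120 in dysplasia and 124 in hyperplasia. The pooled log2 ratio to normal was 3.81 in hyperplasia (95% counting interval 2.23 to 6.11), 3.91 in dysplasia (2.33 to 6.21), 5.42 in carcinoma in situ (3.86 to 7.71) and 5.41 in invasive carcinoma (3.85 to 7.70). These intervals cover counting error only, and Lipn passed the filter through its lesion samples. Carcinoma in situ exceeded dysplasia by 1.53 ± 0.36 (adjusted p = 0.0171) and invasive carcinoma exceeded hyperplasia by 1.57 ± 0.35 (adjusted p = 0.00105). Without carcinoma in situ replicate 2, which had the highest value, the first of these was 1.09 (adjusted p = 0.0727). With the pan-epithelial covariate the first was 1.43 and still called, and the second was 0.514 and not called. The muscle covariate left the second at 0.807, also not called.

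Lipm (ENSMUSG00000056078.6, chr19:34100933-34122687, plus strand) lies beside it. Lipm had 88.9, 80.7 and 88.2 CPM in normal replicates 1 to 3, 72.3 to 100 CPM in hyperplasia (median 88.2), 59.2 to 114 CPM in dysplasia (median 92.1), 53.7 to 83.3 CPM in carcinoma in situ (median 74.8) and 55.8 to 85.5 CPM in invasive carcinoma (median 70.5). It was not called against normal in any stage as fitted. It was called lower with the differentiated keratinocyte covariate, at -0.436 (adjusted p = 0.00261) in carcinoma in situ and -0.592 (adjusted p = 0.000333) in invasive carcinoma, and under pan-epithelial scaling, at -0.601 and -0.767. Both settings were chosen after seeing the data. The covariate called 5957 and 6471 of all 17638 genes in these stages. The scaling called 6465 and 9329, with medians of all genes at -0.334 and -0.465. The log2 fold change of Lipm in invasive carcinoma over hyperplasia was -0.31 ± 0.11 (adjusted p = 0.0263). Ankrd22, on the opposite strand, covers 34.9% of the exon bases of Lipm and had 25.0 ± 5.84 CPM in invasive carcinoma and 21.7 ± 0.669 CPM in normal samples (SD, n = 6 and 3). Lipk (ENSMUSG00000024771.7, chr19:34008290-34047835, plus strand) is the third of the cluster. Lipk had 18.5, 15.8 and 16.8 CPM in normal replicates 1 to 3, 12.4 to 20.5 CPM in hyperplasia (median 14.8), 10.2 to 17.2 CPM in dysplasia (median 13.8), 9.18 to 13.7 CPM in carcinoma in situ (median 11.1) and 11.4 to 14.3 CPM in invasive carcinoma (median 12.3). All carcinoma samples lay below all normal samples, at -0.60 ± 0.15 (adjusted p = 0.00274) in carcinoma in situ and -0.42 ± 0.15 (adjusted p = 0.0215) in invasive carcinoma. The invasive call was lost without normal replicate 1, at -0.343, and without normal replicate 3, at -0.428. The log2 ratio of Lipn to Lipm, a pair chosen after seeing the data, was higher in carcinoma in situ than in dysplasia by 1.56 (adjusted p = 0.0453) by exact permutation. No fold of that ratio is given against normal, since Lipn had 1 count in each normal sample.

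The 250 bases before the start of Lipn, Lipm and Degs2 are printed because Lipn and Degs2 had the largest fold changes of the set against normal in all 4 lesion stages and Lipm is the neighbour of Lipn. They are RefSeq sequences on GRCm38.p6, read 5′ to 3′ on the strand of the gene, and capitals mark a match to the AP-1 letters TGANTCA.
Lipn promoter, chr19:34067108-34067357, plus strand: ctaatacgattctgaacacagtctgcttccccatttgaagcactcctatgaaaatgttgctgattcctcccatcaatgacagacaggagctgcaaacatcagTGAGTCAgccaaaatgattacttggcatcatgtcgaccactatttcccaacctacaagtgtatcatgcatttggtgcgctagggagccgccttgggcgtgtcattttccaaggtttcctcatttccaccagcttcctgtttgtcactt
Lipm promoter, chr19:34100693-34100942, plus strand: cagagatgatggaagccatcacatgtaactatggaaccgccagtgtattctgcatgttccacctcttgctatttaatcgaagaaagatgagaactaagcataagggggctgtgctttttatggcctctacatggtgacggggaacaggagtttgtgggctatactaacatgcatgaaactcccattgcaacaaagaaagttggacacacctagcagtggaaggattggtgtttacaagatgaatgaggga
Degs2 promoter, chr12:108702307-108702556, minus strand: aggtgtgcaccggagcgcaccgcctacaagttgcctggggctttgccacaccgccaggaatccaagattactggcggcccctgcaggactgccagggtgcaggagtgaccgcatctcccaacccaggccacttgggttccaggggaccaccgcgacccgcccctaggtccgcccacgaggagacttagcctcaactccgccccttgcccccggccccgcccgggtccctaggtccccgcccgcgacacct

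The Lipn and Lipm windows had GC contents of 46.0% and 44.4% with 5 and 3 CpG sites, against 69.2% and 18 CpG sites for Degs2. Promoter windows of 250 bases before to 50 after the start were at hand for 27 of the 32 members and for 27025 genes in all. Both strands were searched for 4 sets of letters. The AP-1 letters were found in Lipn alone among the 27 members and in 8.97% of all genes. The grainyhead-like letters AACNGGTT were in none of the 27 and in 2.35% of all genes, and the SREBP letters TCACNCCAC in none and in 1.44%. The C/EBP letters TTGCNNAA were in Nipal4, Pnpla1, Sptlc3 and Tecr and in 12.2% of all genes. A match describes letters in these windows, not a binding site.

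Levels of some members were highest in dysplasia. Stage means peaked in invasive carcinoma for 14 members and in dysplasia for 10, and they were lowest in normal tissue for 18. In carcinoma in situ against dysplasia 1 member rose (Lipn) and 4 fell, with 5.47% of all genes called (2.99% higher and 2.47% lower) and a median of -0.125 for the members and -0.0024 for all genes. The 4 were Alox12b at -0.42 ± 0.12 (adjusted p = 0.0447), Aloxe3 at -0.58 ± 0.14 (adjusted p = 0.0234), Pnpla1 at -0.43 ± 0.12 (adjusted p = 0.0317) and Smpd3 at -0.56 ± 0.15 (adjusted p = 0.0315). The summed level of differentiated keratinocyte markers had a median of 46600 CPM in carcinoma in situ (39600 to 73100) and 69900 CPM in dysplasia (43400 to 73200), and 4 of 19 tested were lower. With their mean log2 level as a covariate, chosen after seeing the data, 0 members and 2.61% of all genes were called. Lipn then stood at 1.53 (adjusted p = 0.0668), as large as without it, while Alox12b was at -0.0504, Pnpla1 at -0.0996, Smpd3 at -0.148 and Aloxe3 at -0.213. Under the same covariate the dysplasia over normal value of Alox12b was -0.12 and that of Aloxe3 was -0.0492. The Alox12b call held in 10 of 30 fits that each left out 1 sample. The count of 5 ran from 0 without carcinoma in situ replicate 2 to 8 without dysplasia replicate 1, with the shares of all genes in those fits not given here.

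**Figure D5:**
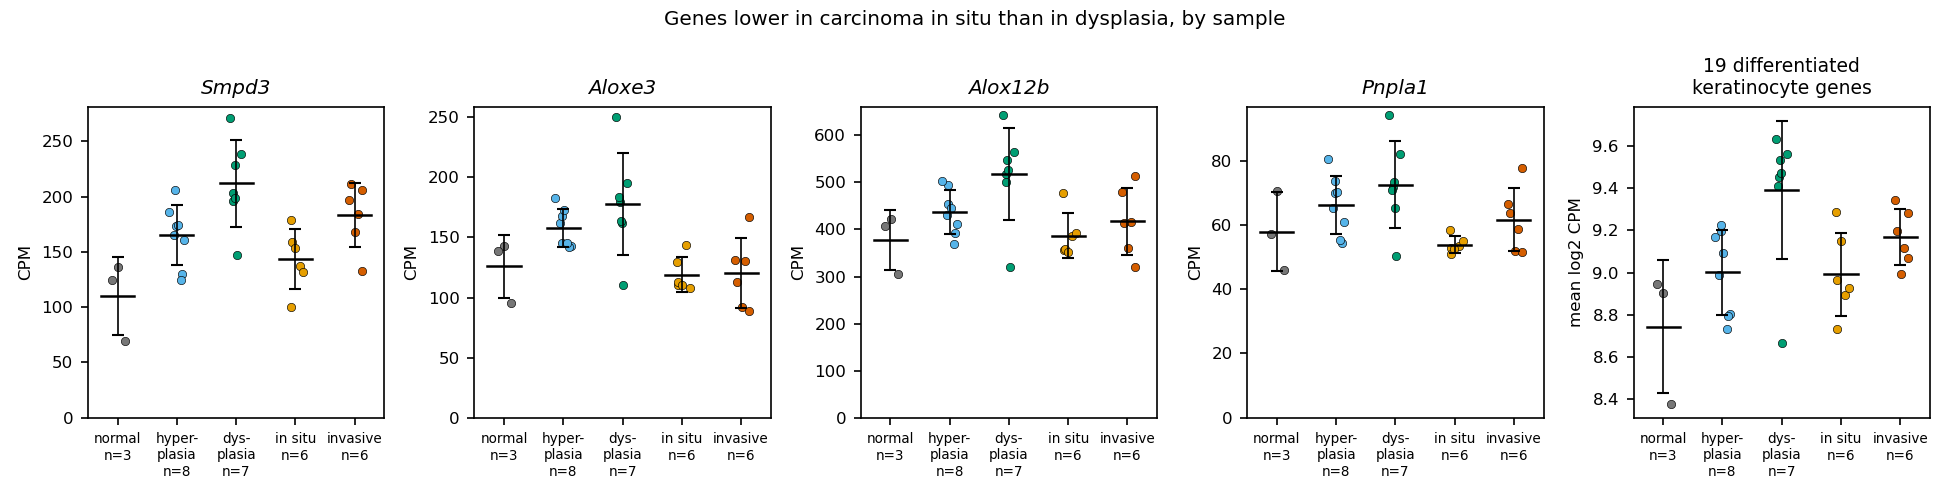
CPM of Smpd3, Aloxe3, Alox12b and Pnpla1 by stage (points are samples, bars mean ± SD), and the mean log2 CPM of 19 differentiated keratinocyte genes. The means of the 4 genes are highest in dysplasia and lower in carcinoma in situ, and the keratinocyte panel shows the same order between these stages.

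No member and no gene of the 17638, 0% of them, was called between invasive carcinoma and carcinoma in situ by edgeR, DESeq2 or limma-voom, and 3 members had an unadjusted p under 0.05 by edgeR. The members' median was 0.129, against -0.0068 for all genes. Invasive carcinoma against hyperplasia has no normal sample in either group, though the normal samples enter the filter, scaling and spread of the fit. It called 18 members, 12 higher and 6 lower, where 38.4% of all genes were called (19.1% higher and 19.2% lower, median 0.147 for the members and -0.0115 for all genes). The 6 that fell were Cers4 at -0.83 ± 0.15 (adjusted p = 0.0002), Sptlc3 at -0.46 ± 0.11, Fa2h at -1.25 ± 0.27, Aloxe3 at -0.39 ± 0.14, Lipm at -0.31 ± 0.11 and Lipk at -0.29 ± 0.12 (adjusted p = 0.0461). Those that rose included Elovl7 at 0.52 ± 0.09 (adjusted p = 0.000115), Slc27a4 at 0.34 ± 0.08 (adjusted p = 0.00215) and Sptlc2 at 0.28 ± 0.08 (adjusted p = 0.00906). The Lipk call held in 8 of 30 fits that each left out 1 sample, and was lost on leaving out normal replicate 1, 2 or 3. Without invasive replicate 12 Lipm was at -0.254 and Aloxe3 at -0.314, neither called. With the pan-epithelial covariate Sptlc3 and Cers4 remained called, where 3.83% of all genes were called. The other 4 that fell kept their sign there, Aloxe3 at -0.566, Lipk at -0.444, Lipm at -0.435 and Fa2h at -0.88, so the first 3 were larger than without the covariate. None of the 12 that rose stayed called with it, among them Degs2 at 0.651, Lipn at 0.514 and Elovl7 at 0.267. Sdr9c7, Elovl1, Elovl4 and Degs1 then lay just below 0. Of 15 pan-epithelial markers 9 were higher in invasive carcinoma than in hyperplasia, and 12 of 20 muscle markers were lower.

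Counting separation in place of fitted tests, 11 members had all 6 invasive samples above the 3 normal samples, as did 17.2% of all genes, and 3 members (Cers4, Acer1 and Lipk) had all 6 below, as did 15.2% of all genes. The counts were 11 above and 3 below in carcinoma in situ, with 14.1% and 12.5% of all genes, 7 above and 1 below (Cers4) in dysplasia, with 11.6% and 8.95%, and 7 above and 1 below (Alox12) in hyperplasia, with 9.13% and 5.52%. Sptlc1, Sptlc2, Elovl1, Abca12, Degs2 and Lipn lay wholly above normal in each of the 4 lesion stages. Lipn had 1 count in each normal sample and passed the filter through its lesion samples, so its separation is not support for a rise. Exons of 9 members overlap those of another gene, in each case on the opposite strand.

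Genes that work beside the set were counted from companion lists, to be read against the 46.1% of all genes called in invasive carcinoma against normal and the 52.9% called under pan-epithelial scaling. Of 30 further sphingolipid genes, 8 rose and 4 fell in invasive carcinoma against normal, and 1 rose and 12 fell under pan-epithelial scaling. Against normal, 3 rose and 1 fell in hyperplasia, 7 rose and 1 fell in dysplasia, and 6 rose and 4 fell in carcinoma in situ, beside 14.3%, 25.7% and 37.6% of all genes. Without normal replicate 2 the list gave 1 higher and 0 lower in hyperplasia, 1 and 0 in dysplasia, 2 and 1 in carcinoma in situ, and 6 and 2 in invasive carcinoma. These counts are to be read against the lower shares of all genes in that fit, given above with the member counts. Sgpp2, a sphingosine-1-phosphate phosphatase, rose by 1.95 ± 0.28 (adjusted p = 1.52e-05), Cers6, a synthase for shorter acyl chains, by 0.75 ± 0.13 (adjusted p = 8.61e-05), and Ormdl2, a regulator of serine palmitoyltransferase, by 0.58 ± 0.13 (adjusted p = 0.000692). Under the scaling Sgpp2 was at 1.45 and still called, while Cers6 at 0.263 and Ormdl2 at 0.0816 were not. Of 23 tested genes of fatty acid elongation and activation, 8 rose and 8 fell, against 3 higher and 10 lower under the scaling, among them the acyl-CoA synthetases Acsl1 at -1.40 ± 0.20 (adjusted p = 1.04e-05) and Slc27a3 at 1.44 ± 0.23 (adjusted p = 2.79e-05) and the dehydratase Hacd3 at 0.83 ± 0.12 (adjusted p = 1.05e-05). Of 12 lipoxygenase and epoxide-handling genes 4 rose and 2 fell, against 1 and 3 under the scaling, with the lipoxygenase Alox8 at 4.25 ± 0.80 (adjusted p = 0.000159) and the epoxide hydrolases Ephx3 at 0.71 ± 0.14 (adjusted p = 0.000311) and Ephx2 at -1.25 ± 0.22 (adjusted p = 8.89e-05). Without normal replicate 2 the lipoxygenase list gave 2 higher and 2 lower, beside the same lower share of all genes.

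Of 7 tested genes of barrier cholesterol and cholesterol sulfate, 3 rose and 1 fell, against 2 and 2 under the scaling. Sqle, of sterol synthesis, rose by 0.80 ± 0.16 (adjusted p = 0.000213), and Sult2b1, the cholesterol sulfotransferase, by 0.87 ± 0.20 (adjusted p = 0.000787). Of 22 regulators of barrier lipid genes 8 rose and 3 fell, including the nuclear receptors Ppard at 1.01 ± 0.17 (adjusted p = 5.19e-05) and Ppara at -1.39 ± 0.24 (adjusted p = 7.46e-05) and the transcription factor Cebpa at 0.73 ± 0.13 (adjusted p = 8.85e-05). The summed level of 10 adipocyte markers was 159 to 235 CPM in invasive carcinoma and 301 to 746 CPM in normal samples, and their part and that of muscle in the falls of Acsl1, Ephx2 and Ppara was not tested. Under pan-epithelial scaling the regulators split into 3 higher and 9 lower. The median log2 fold changes of these lists in invasive carcinoma against normal were 0.122 for the sphingolipid genes, 0.111 for elongation and activation, 0.284 for lipoxygenases and epoxide handling, 0.265 for cholesterol and 0.172 for the regulators, beside 0.0196 for all genes.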

How the data were processed

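RNA was extracted from 30 samples and made into stranded mRNA libraries, per the labels' protocols. The submitters' processing notes name cutadapt 2.4, STAR 2.7.2a and the build GRCm38. The authors deposited whole-number read counts per Ensembl gene, with a counting tool, strand rule and annotation release not given in the sources used here. Names, coordinates and exon lengths came from GENCODE M21, which held 55227 of 55487 identifiers (99.53%).

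The counts were fitted in edgeR 4.0.16 (filterByExpr, TMM, robust quasi-likelihood, 1 mean per stage over all 30 samples; R 4.3.3), with Benjamini-Hochberg adjustment over 17638 genes and a threshold of 0.05. Fold changes are the lesion or later stage over the other, with ± 1 standard error. Ratios within a sample used counts plus 0.5 and exact permutation. The depth of 17725604 to 28023098 counts limits low genes such as Lipn, and intervals cover counting error only.

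Alternatives were DESeq2 1.42.0, limma 3.58.1 (voom), RLE and upper-quartile scaling, no filter, only the groups compared, a threshold of 0.01, marker covariates, a replicate block and leaving out each sample. The differentiated keratinocyte covariate, pan-epithelial scaling and the ratios were chosen after seeing the data. Members and lists were chosen with earlier results of these data known. All 32 members are accounted for. In each role up to 3 with the smallest p over the 5 stages are described in full, as are up to 3 genes per companion list by adjusted p. 1 gene of a companion list is not reported here by name.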

Additional observations from a re-analysis of the deposited data

Results flagged for a closer look

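In 12 of 128 sets of values, each 1 gene in 1 lesion stage, 1 sample stood apart from the rest by Dixon's criterion. The genes share the same libraries, so this count cannot be set against the 1 in 20 of independent groups. Dysplasia replicate 1, the library with the highest salivary gland sum, was the low one for 6 members: Elovl1 at 235 CPM (next sample 309 CPM), Elovl6 at 35.3 CPM (58.9 CPM), Elovl7 at 80.2 CPM (103 CPM), Sptlc2 at 90.5 CPM (106 CPM), Cyp4f39 at 123 CPM (196 CPM) and Acer1 at 41.5 CPM (64.8 CPM). Carcinoma in situ replicate 4 was low for Cers3 at 134 CPM (next 175 CPM) and Nipal4 at 82.3 CPM (104 CPM), and its salivary sum of 7360 CPM was the highest of its stage. Carcinoma in situ replicate 1 was high for Alox12b at 477 CPM (next 392 CPM). Invasive carcinoma replicate 5 was high for Fa2h at 2.44 CPM (next 1.32 CPM). Dysplasia replicate 6 was high for Smpd1 at 134 CPM (next 109 CPM), and hyperplasia replicate 8 for Asah1 at 56.9 CPM (next 49.6 CPM). The part of salivary tissue in these values was not tested.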

How the results depend on the processing

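The share of all genes called stands in brackets after each count of members, except for the ranges over left-out samples. At an adjusted p under 0.01 the members called were 5 in hyperplasia (5.6%), 11 in dysplasia (11.4%), 0 in dysplasia against hyperplasia (1.71%), 0 in carcinoma in situ against dysplasia (0.352%), 10 in invasive carcinoma against hyperplasia (22.7%), 15 over the 5 stages (36.1%) and 7 over the lesion stages (19%). For carcinoma in situ against dysplasia the count was 2 with no filter (0.959%), 8 by voom (12.9%), and 0 with only the groups compared (1.08%). For dysplasia against hyperplasia it was 3 by DESeq2 (7.73%), 11 by voom (20.4%), 4 with only the groups compared (11.2%) and 2 with a salivary covariate (5.66%). Dysplasia against normal gave 12 with only the groups compared (25.0%). With a muscle covariate the counts were 6 in dysplasia (4.34%), 7 in carcinoma in situ (14.1%), 7 in invasive carcinoma (11.5%), 0 in dysplasia against hyperplasia (3.27%), 8 in invasive carcinoma against hyperplasia (12.5%), 16 over the 5 stages (30.3%) and 11 over the lesion stages (22.3%). With a pan-epithelial covariate these were 6 (5.13%), 7 (12.1%), 7 (8.29%), 0 (2.4%), 2 (3.83%), 16 (25.4%) and 9 (14.5%). With the differentiated keratinocyte covariate, dysplasia gave 7 (6.53%) and carcinoma in situ against dysplasia 0 (2.61%). Pan-epithelial scaling gave 6 in hyperplasia (5.08%), 5 in dysplasia against hyperplasia (17.5%) and 1 in carcinoma in situ against dysplasia (1.38%).

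Deviations of samples with the same replicate number had a median r of 0.0489 over 31 pairs, against -0.00384 over 322 other pairs. The 31 values ran from -0.564 to 0.512, with 11 over 0.1, so this check does not settle whether some of these samples were paired. With the number as a replicate block the counts were 10 in invasive carcinoma against normal (21.3%), 0 in carcinoma in situ against dysplasia (1.60%), 5 in invasive carcinoma against hyperplasia (9.55%), 13 over the 5 stages (39.1%) and 7 over the lesion stages (20.3%). Leaving out each sample gave ranges of 3 to 12 in hyperplasia, 8 to 22 in dysplasia, 10 to 16 in carcinoma in situ, 13 to 22 in invasive carcinoma, 0 to 7 in dysplasia against hyperplasia, 0 to 8 in carcinoma in situ against dysplasia, 12 to 19 in invasive carcinoma against hyperplasia, 19 to 27 over the 5 stages and 11 to 22 over the lesion stages. The share of all genes called also moved between fits, as it did without normal replicate 2. These ranges therefore do not describe the members alone.

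Of 88 called member values, RLE, upper-quartile scaling, DESeq2, voom, no filter, only the groups compared, the 0.01 threshold, the muscle and salivary covariates and the block reversed 0. In dysplasia the differentiated keratinocyte covariate reversed Alox12b (-0.12), Aloxe3 (-0.0492), Sdr9c7 (-0.0229), Elovl4 (-0.1), Nipal4 (-0.0378) and Ugcg (-0.0414). Pan-epithelial scaling reversed Slc27a4 (-0.104) in invasive carcinoma. In invasive carcinoma against hyperplasia the pan-epithelial covariate reversed Sdr9c7 (-0.0381), Elovl1 (-0.00143), Elovl4 (-0.018) and Degs1 (-0.0342). There the scaling, which moved the median of all genes to -0.406, reversed Sdr9c7 (-0.0367), Elovl1 (-0.0731), Elovl4 (-0.0953), Slc27a4 (-0.0635), Sptlc1 (-0.111), Sptlc2 (-0.109), Degs1 (-0.139) and Abhd5 (-0.134). The causes were not tested. Normal tissue rested on 3 samples, and Lipn had 1 count in each.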
